A study of Mus musculus with 2 samples.

Results

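The 6 genes *Eya1*, *Msc*, *Tfap2d*, *Tfap2b*, *Pou3f3* and *Gbx2* encode developmental transcription regulators and lie on mouse chromosome 1 (GRCm38). They were chosen by name, as regulators of later development, and they are 6 of the 497 protein-coding genes of RefSeq whose midpoint falls in the stretch analysed (chromosome 1 from 3 Mb to position 90750000). RNA was not measured in these libraries, so whether the genes were transcribed in these embryonic stem (ES) cells could not be checked here. *Gbx2* is known as a target of LIF signalling that mouse ES cells can express, and LIF was in the medium. *Eya1* encodes a transcriptional coactivator and phosphatase of ear, kidney and muscle development. *Msc* (musculin) is a basic helix-loop-helix repressor of the muscle lineage. *Tfap2d* and *Tfap2b* are neighbouring AP-2 family factors of brain, neural crest and kidney. *Pou3f3* is a POU-domain factor of the forebrain and kidney, and *Gbx2* is a homeobox factor that positions the midbrain-hindbrain border.

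Hi-C measures how often pairs of genomic sites lie close enough to be joined after cross-linking. It was done in 1 library of wild-type mouse ES cells and 1 library of ES cells lacking *Lin28a*, which encodes an RNA-binding protein of pluripotent cells. Both were grown for 2 days on gelatin with mouse embryonic fibroblast feeders in LIF/2i medium and cross-linked with 1% formaldehyde, and the share of feeder-cell contacts was not measured. The study used knockout cells of several origins, among them single ES cell clones made with Cas9, and the origin of the cells of this library is not given in the sources used here. The labels tell of 2 replicates per group, which could not be told apart in the data, so that each genotype is 1 library and no difference between genotypes could be tested against replicate spread. All intervals below are 95% intervals for counting error only (exact Poisson for a library, exact binomial for a ratio of libraries), and PCR copies or differences between cell lines are not in them.

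The stretch held 5767991 wild-type and 4412861 knockout pairs, of which 3044443 and 2351466 joined sites of chromosome 1 at least 20 kb apart. The read names of each library fell into 2 groups by their leading fields, which may be sequencing runs or lanes. The targeted gene itself, *Lin28a* on chromosome 4 (134003330 to 134019196), was seen only through contacts with the analysed stretch, with 12 ends in wild-type and 15 in knockout cells (ratio per pair 1.63, 0.713 to 3.82), so the data do not check the knockout.

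Genes of this kind are textbook targets of the Polycomb complexes in ES cells. Polycomb complexes mark repressed chromatin at CpG-rich promoters with ubiquitin on histone H2A and methyl groups on lysine 27 of histone H3, and distant Polycomb targets are known to touch one another in the nucleus. Such clustering would appear in Hi-C as more contacts between the gene windows than sites at the same distance have on average.

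The genes differed in their sequence setting. The promoters of 4 genes were in the RefSeq promoter table (250 bases before to 50 after a start, GRCm38.p6), and one of each is shown because CpG density is the sequence property by which Polycomb targets are known; CG dinucleotides are in capitals, and CG reads the same on both strands. They are *Tfap2d* at chr1:19102772-19103071 (plus strand), *Tfap2b* at chr1:19211804-19212103 (plus), *Pou3f3* at chr1:42695518-42695817 (plus) and *Gbx2* at chr1:89931127-89931426 (minus).
Tfap2d: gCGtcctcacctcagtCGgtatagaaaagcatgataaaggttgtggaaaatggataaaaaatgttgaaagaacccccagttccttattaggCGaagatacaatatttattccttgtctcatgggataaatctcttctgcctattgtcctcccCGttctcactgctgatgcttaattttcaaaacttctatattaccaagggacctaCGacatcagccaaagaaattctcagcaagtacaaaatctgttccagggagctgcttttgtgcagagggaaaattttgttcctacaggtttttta
Tfap2b: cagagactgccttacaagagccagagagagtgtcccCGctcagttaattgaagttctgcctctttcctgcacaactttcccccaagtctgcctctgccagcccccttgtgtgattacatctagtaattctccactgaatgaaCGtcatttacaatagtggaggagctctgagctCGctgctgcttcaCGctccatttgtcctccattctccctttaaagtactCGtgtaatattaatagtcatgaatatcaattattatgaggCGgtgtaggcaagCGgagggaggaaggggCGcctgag
Pou3f3: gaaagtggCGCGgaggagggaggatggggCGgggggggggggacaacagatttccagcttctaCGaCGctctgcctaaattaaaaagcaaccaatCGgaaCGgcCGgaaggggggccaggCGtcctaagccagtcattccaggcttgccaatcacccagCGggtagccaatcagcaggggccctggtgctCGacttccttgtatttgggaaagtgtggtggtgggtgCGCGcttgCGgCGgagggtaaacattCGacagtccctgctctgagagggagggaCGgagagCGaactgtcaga
Gbx2: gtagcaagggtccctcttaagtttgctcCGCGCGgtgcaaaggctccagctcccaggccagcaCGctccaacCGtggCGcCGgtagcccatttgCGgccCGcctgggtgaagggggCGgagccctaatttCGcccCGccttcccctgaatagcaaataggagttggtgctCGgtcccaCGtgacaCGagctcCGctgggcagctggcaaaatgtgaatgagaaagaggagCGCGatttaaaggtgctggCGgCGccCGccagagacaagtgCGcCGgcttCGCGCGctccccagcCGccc

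*Gbx2* had 27 CG in its promoter and *Pou3f3* had 18, against a median of 7 over the 32851 mouse promoters of the table. Promoters with at least as many CG made up 15.5% and 29.7% of the table. The *Tfap2b* promoter held 8 CG and belongs to a start inside the gene, whose annotation begins at position 19208908. The table holds 3 starts of *Tfap2d*, with 5, 5 and 10 CG, and the one shown, with 5, is at the start of the gene's annotation. *Eya1* and *Msc* were not matched.

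Each gene was followed through a window of 50 kb centred on its midpoint. Over these windows *Pou3f3* (21.4 CpG per kb) and *Gbx2* (21.3 CpG per kb) stood at the 99.0th and 98.8th percentile of coding windows, whose median was 9.48. The *Tfap2b* window had 12.98 CpG per kb, the *Msc* window 8.42, the *Tfap2d* window 7.58 and the *Eya1* window 6.30. The windows of *Eya1* (chr1:14214995-14264994) and *Tfap2d* (chr1:19113486-19163485) lie within these long genes and do not contain their starts. The window of *Msc* is chr1:14729717-14779716 and overlaps the noncoding gene *Gm9947*. That of *Tfap2b* is chr1:19198877-19248876. That of *Pou3f3* is chr1:42672990-42722989 and overlaps several noncoding genes including *Pantr1*, and that of *Gbx2* is chr1:89904570-89954569. The *Gbx2* window also overlaps the coding genes *LOC102637806*, 0.899 kb from *Gbx2*, and *Asb18*, so its values are not those of *Gbx2* alone.

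All 6 genes lie in gene-poor surroundings. *Eya1* had 0 other coding gene midpoints within 500 kb, *Msc*, *Tfap2d* and *Tfap2b* had 1 each, and *Pou3f3* and *Gbx2* had 5 each, against a median of 9 for coding genes. The nearest coding gene to *Eya1* is *Msc*, 442 kb away, and *Tfap2d* and *Tfap2b* are each other's nearest, 35.0 kb apart.

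The cis contact ends of the windows differed little between genotypes. An end is one side of a pair that joins 2 sites of chromosome 1 at least 20 kb apart, and the level is given per 1000000 such ends in the stretch. The *Eya1* window had 3107 ends in wild-type and 2319 in knockout cells, a ratio of the scaled levels of 0.948 (0.898 to 1.00). The *Tfap2d* window had 2585 and 1945 ends (0.956, 0.901 to 1.01). Both were the lowest ratios among the 6 genes.

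The *Msc* window had 2672 and 2124 ends (1.01, 0.953 to 1.07). The *Gbx2* window had 4374 and 3442 (0.999, 0.955 to 1.05). The *Tfap2b* window had 3041 and 2461 (1.03, 0.974 to 1.08), and the *Pou3f3* window 3611 and 2937 (1.03, 0.984 to 1.08). For 0 of the 6 genes did the interval leave out 1, while it did so for 22.2% of the 496 coding windows with ends, and 0 of these 496 windows (0%) passed 1.5-fold. The ratios of all coding windows ran from 0.886 to 1.13.

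The level itself differed among the genes. *Tfap2d* was lowest, at 471 ends per 1000000 in wild-type and 450 in knockout cells, followed by *Msc* at 486 and 491. *Tfap2b* (554 and 569) and *Eya1* (566 and 536) changed order between the libraries, and in wild-type cells they did not differ beyond counting error. *Pou3f3* (657 and 679) stood near the coding medians of 672 and 673, and *Gbx2* (796 in both) stood at the 89.1th and 90.1th percentile.

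**Figure D1:**
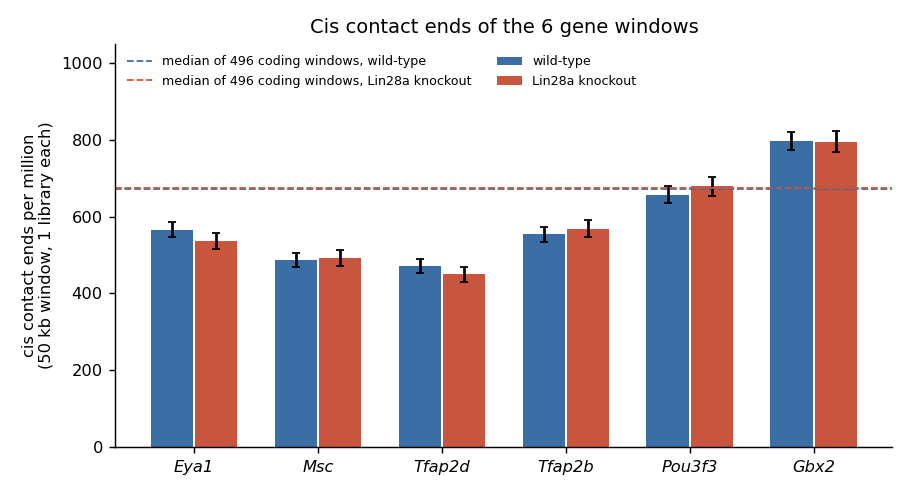
Cis contact ends per 1000000 in the 50 kb window of each gene (y axis) in the wild-type and Lin28a knockout library (bars; error bars are exact Poisson intervals for counting error), with the median of 496 coding windows as dashed lines. Tfap2d is lowest at 471 and 450, Gbx2 highest at 796 in both, and the bars of a gene differ little between libraries.

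The reach of the contacts set the AP-2 genes apart from most coding windows. Of the cis ends of the *Tfap2b* window, 29.7% (28.0 to 31.3) in wild-type and 33.3% (31.4 to 35.2) in knockout cells came from partners 1 to 10 Mb away. For *Tfap2d* the shares were 29.2% (27.4 to 31.0) and 31.5% (29.5 to 33.6). The coding medians were 20.9% and 22.5%, and both genes stood between the 97.2th and the 99.4th percentile in both libraries. *Msc* was also high at 1 to 10 Mb, with 26.2% and 28.4%, the 90.73th and 88.91th percentile. It was low for the longest contacts, with 23.4% (21.8 to 25.04) and 21.3% (19.6 to 23.1) of its ends joined to partners 10 Mb or more away. The coding medians at this range were 33.0% and 31.1%. *Eya1* was below them too, at 27.6% and 23.8%, the 12.5th and 7.46th percentile. The AP-2 genes were likewise below these medians, between the 17.5th and the 31.3th percentile.

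The share of contacts with other chromosomes was lowest, among the 6 genes, at *Pou3f3*, at 25.5% and 25% of its cis and trans ends together, against coding medians of 31.2% and 30.9%. *Tfap2b* followed at 26.3% and 25.4%. *Eya1* was above the median, at 34.9% and 32.8%.

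The question of Polycomb-type clustering was addressed with the contacts between windows of different genes, over the number expected for sites at the same distance in the same library. The 15 pairs among the genes split into 2 near pairs, *Tfap2d* with *Tfap2b* and *Eya1* with *Msc*, and 13 pairs 1 Mb or more apart.

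*Tfap2d* and *Tfap2b*, 85.4 kb apart, were joined 57 times in wild-type cells, 0.593 (0.449 to 0.768) of the expectation, and 45 times in knockout cells, 0.603 (0.440 to 0.807). The knockout over wild-type ratio was 1.02 (0.673 to 1.53). Among 121 pairs of coding windows within 10% of this distance the medians were 1.47 and 1.40 times expected, and 48.8% and 43% of these pairs reached 1.5 times. The AP-2 pair stood at the 4.96th percentile in both libraries. Both of its windows had few ends, and an expectation scaled by the ends of both windows gave 0.817 (0.619 to 1.06) and 0.834 (0.609 to 1.12).

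*Eya1* and *Msc*, 0.515 Mb apart, were joined 33 times in wild-type cells (1.27, 0.877 to 1.79) and 18 times in knockout cells (0.853, 0.505 to 1.35), with a ratio of 0.669 (0.355 to 1.22). Wider windows gave more contacts. With windows of 200 kb there were 576 contacts in wild-type (1.37, 1.26 to 1.49) and 365 in knockout cells (1.07, 0.961 to 1.18). Scaled by the ends of the windows the values were higher, 1.69 (1.16 to 2.37) and 1.18 (0.700 to 1.87) at 50 kb and 1.56 (1.44 to 1.70) and 1.32 (1.19 to 1.47) at 200 kb, where the knockout value also passed 1 by more than counting error and the ratio was 0.845 (0.739 to 0.966). The unscaled ratio was 0.779 (0.681 to 0.890) with windows of 200 kb and 0.729 (0.548 to 0.965) with windows of 100 kb. Both were below 1 by more than counting error. Of coding pairs at like distance 8.5% had a ratio interval without 1 with 100 kb windows, 4.58% below it. Of 460 coding pairs at like distance, 16.7% had a ratio interval without 1 with 200 kb windows, 8.26% below it, and the *Eya1* and *Msc* pair stood at the 2.83th percentile of their ratios. With windows of 50 kb, where the ratio interval included 1, it stood at the 7.84th percentile of 459 coding pairs. The pair was thus among the larger losses at its distance with the wider windows and the unscaled expectation. These widths were chosen for the pair after the data were seen, and the scaled ratio was not ranked.

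The 13 distant pairs gave few contacts at this depth. In wild-type cells 5 of them had a contact and 9 contacts were seen in all, 0.963 (0.440 to 1.83) of the 9.34 expected. In knockout cells 7 had a contact and 12 were seen, 1.61 (0.833 to 2.82) of the 7.44 expected. Of all coding pairs, 22.3% in wild-type and 26.6% in knockout cells had 0 contacts at 1 to 10 Mb, and 51.9% and 58.9% at 10 Mb or more. The 13 pairs mix both ranges, so their counts cannot be set directly against these shares. The 5 pairs with *Gbx2*, with expectations of at most 0.377 in wild-type and 0.247 in knockout cells, often had 0 contacts. They made up 5 of the 8 pairs without a contact in wild-type and 4 of the 6 in knockout cells. The knockout over wild-type ratio of the 13 pairs was 1.67 (0.647 to 4.50). With this expectation neither an excess of these pairs in either library nor a difference between the libraries was detectable. With the expectation scaled by the ends of the windows the values of the 13 pairs were 1.09 (0.497 to 2.06) and 1.88 (0.969 to 3.28). The 4 pairs 1 to 10 Mb apart, which join *Eya1* or *Msc* to *Tfap2d* or *Tfap2b*, had 7 contacts in wild-type and 9 in knockout cells, 1.197 (0.481 to 2.47) and 1.85 (0.844 to 3.51) of the expectation. Scaled by ends they stood at 1.54 (0.619 to 3.17) and 2.45 (1.12 to 4.65), above 1 by more than counting error in the knockout library. With 200 kb windows, which join the AP-2 windows and leave 2 pairs, the scaled values were 0.944 (0.709 to 1.23) and 1.35 (1.03 to 1.74), while the unscaled ones included 1, and the scaled knockout over wild-type ratio was 1.43 (0.976 to 2.10). Values above 1 were not particular to these pairs. At this range the 12 generally expressed genes compared below, scaled by ends, stood in knockout cells at 1.73 (1.39 to 2.13) with 50 kb windows. With 200 kb windows they stood at 1.34 (1.26 to 1.42). The 10 other developmental regulators compared below stood at 0.808 (0.493 to 1.25) and 1.01 (0.906 to 1.13). The 9 pairs 10 Mb or more apart had 2 and 3 contacts. Without *Eya1* the distant pairs stood at 0.342 (0.0414 to 1.24) and 1.31 (0.479 to 2.84). With windows at the gene starts the distant pairs stood at 0.531 (0.172 to 1.24) and 1.2001 (0.549 to 2.28), with a ratio of 2.26 (0.680 to 8.59).

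No distant pair had more than 4 contacts. *Eya1* with *Tfap2b* had 4 in each library, *Eya1* with *Tfap2d* 2 and 1, and *Eya1* with *Pou3f3* 1 in each. *Msc* with *Tfap2b* had 1 and 2, and *Msc* with *Tfap2d* 0 and 2. *Gbx2*, the most distant gene, had 0 contacts with the other windows in wild-type cells and 1, with *Pou3f3*, in knockout cells. Taking 3 contacts as the most that a count of 0 allows, a one-sided limit unlike the 2-sided intervals above, *Gbx2* in wild-type cells could have stood at up to 2.74 times its expectation of 1.09. Single distant pairs could therefore not be ranked.

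Windows of 200 kb raised the counts. Those of *Tfap2d* and *Tfap2b* overlap at this width and were joined into one, so that no contact was counted more than once, which left 9 distant pairs. They held 108 contacts in wild-type cells, 0.936 (0.768 to 1.13) of the expectation, and 102 in knockout cells, 1.12 (0.913 to 1.36). The ratio of 1.196 (0.903 to 1.58) included 1. All 15 pairs together, at 50 kb, gave 0.753 (0.612 to 0.917) and 0.727 (0.572 to 0.911), and without *Tfap2d* 1.27 (0.908 to 1.73) and 1.06 (0.699 to 1.54).

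The comparison lists gave the scale for these values. Pooled over pairs, coding windows were above the expectation, which averages over genes and gene-free chromatin alike. Pairs 1 to 10 Mb apart stood together at 1.22 times expected in wild-type and 1.23 in knockout cells, and 32.5% and 31.2% of them reached 1.5 times. Pairs 10 Mb or more apart stood together at 1.51 and 1.56, with 38.2% and 38.1% at 1.5 times or more.

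The windows of 12 generally expressed genes, such as *Ncl* and *Hspd1*, were joined 170 times in wild-type cells over 63 pairs at 1 Mb or more, 2.49 (2.13 to 2.90) of the expectation, and 174 times in knockout cells, 3.02 (2.59 to 3.51). The 6 developmental genes were at 0.387 (0.174 to 0.751) of that level in wild-type and 0.534 (0.271 to 0.956) in knockout cells. With 200 kb windows these fractions were 0.401 (0.327 to 0.486) and 0.455 (0.369 to 0.555). After scaling by the ends of the windows the intervals included 1 at 50 kb, with fractions of 0.708 (0.318 to 1.38) and 0.978 (0.496 to 1.75), and the fractions were 0.670 (0.547 to 0.813) and 0.782 (0.635 to 0.954) at 200 kb. The knockout over wild-type change of the 6 genes divided by that of the expressed genes was 1.13 (0.860 to 1.497) at 200 kb, so no difference in change was detectable.

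A second list of 10 developmental regulators and signalling genes, among them *Sox17*, *Pax3* and *Ihh*, lay closer to the 6 genes. Their distant pairs stood at 1.08 (0.759 to 1.49) in wild-type and 1.35 (0.961 to 1.85) in knockout cells. With 200 kb windows they stood at 1.22 (1.13 to 1.33) and 1.47 (1.35 to 1.59), both above 1. The knockout over wild-type ratio was 1.199 (1.07 to 1.35), whose interval left out 1. Scaled by ends they stood at 0.895 (0.824 to 0.971) and 1.07 (0.986 to 1.16), with a ratio of 1.197 (1.07 to 1.35). The scaled 200 kb ratio of the expressed genes, 1.09 (1.03 to 1.16), also left out 1, while their unscaled ratio, 1.05 (0.993 to 1.12), did not. At 200 kb, unscaled, the knockout over wild-type change of the 6 genes divided by that of this list was 0.997 (0.743 to 1.34). The 6 genes over this list gave 0.894 (0.379 to 1.89) and 1.19 (0.569 to 2.33). With 200 kb windows the 6 genes were lower, at 0.766 (0.618 to 0.942) and 0.764 (0.613 to 0.944) of the list, and after scaling by ends they were not, at 1.05 (0.849 to 1.29) and 1.12 (0.897 to 1.38). Between the 6 genes and this list, contacts stood at 1.07 (0.704 to 1.55) and 1.47 (0.979 to 2.13), and between the 6 genes and the expressed genes at 1.15 (0.838 to 1.55) and 1.25 (0.882 to 1.73). With 200 kb windows these were 1.34 (1.22 to 1.46) and 1.39 (1.25 to 1.54) with the developmental list, and 1.40 (1.30 to 1.51) and 1.26 (1.15 to 1.37) with the expressed genes, all above 1 by more than counting error. Scaled by ends at 200 kb they were 1.03 (0.942 to 1.13) and 1.09 (0.981 to 1.21) with the developmental list, and 0.971 (0.903 to 1.04) and 0.901 (0.825 to 0.981) with the expressed genes.

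**Figure D2:**
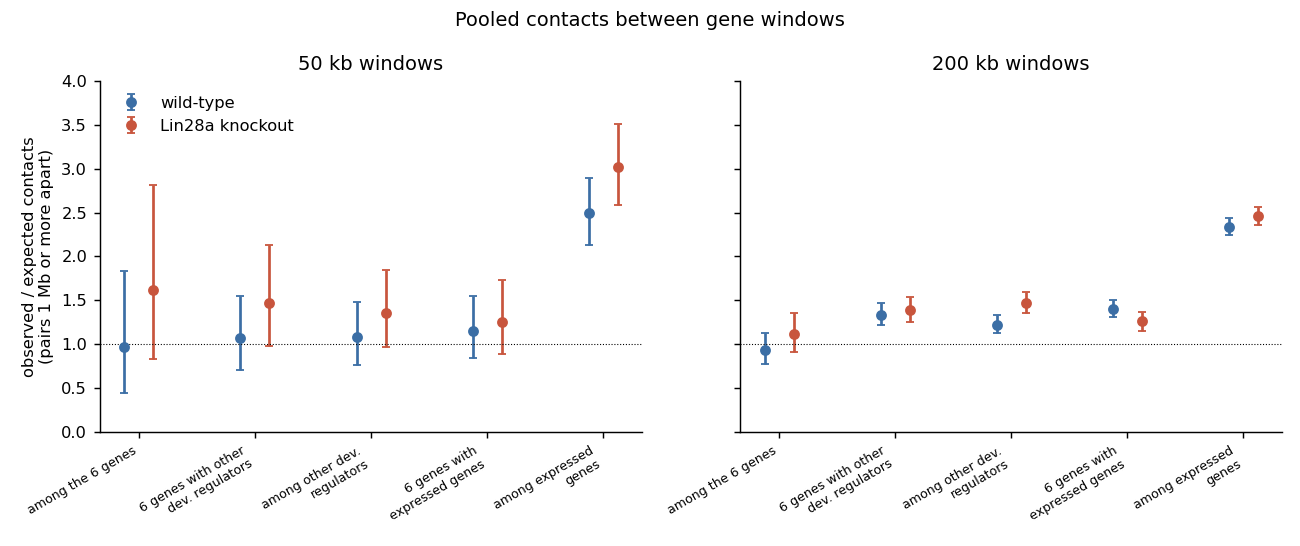
Pooled contacts between gene windows 1 Mb or more apart as observed over expected (y axis) for windows of 50 kb (left) and 200 kb (right), in the wild-type and Lin28a knockout library, with exact Poisson intervals; the dotted line marks the distance expectation. Pairs among the 6 genes sit at 0.963 and 1.61 with wide intervals at 50 kb and at 0.936 and 1.12 at 200 kb, and pairs among expressed genes sit at 2.34 or higher throughout.

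Whether the contacts were focal was asked by dividing the value at the crossing of the 2 windows by that of the squares 100 to 250 kb around it. For the distant pairs of the 6 genes this was 1.02 (0.465 to 1.94) in wild-type and 1.48 (0.764 to 2.60) in knockout cells. For the expressed genes it was 1.28 (1.09 to 1.49) and 1.55 (1.33 to 1.802), and for the other developmental regulators 0.874 (0.615 to 1.21) and 1.08 (0.768 to 1.48). A focal excess among the 6 genes was thus not detectable at this depth.

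Contacts with developmental genes on other chromosomes were counted against a list of 69 genes of the same kind, in partner windows of 200 kb. The 6 windows had 54 such contacts in wild-type cells, 1.02 (0.768 to 1.33) of the number expected from the trans ends of both sides, and 36 in knockout cells, 0.895 (0.627 to 1.24). The ratio was 0.876 (0.558 to 1.36). With the same partners the other developmental regulators stood at 1.11 (0.920 to 1.34) and 1.23 (0.996 to 1.49). The expressed genes stood at 1.17 (1.01 to 1.35) and 1.19 (1.01 to 1.39).

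The genes fell into both compartments. The compartment value is the first eigenvector of the contact map in bins of 250 kb, in units of its SD, positive in the A compartment (active, gene-rich chromatin) and negative in B. The wild-type library was thinned to the number of pairs used from the knockout library. Each library was also split into 2 random parts as a guide to counting error. Each part was scaled to its own SD, so the value of a library can lie outside its parts. At *Gbx2* the wild-type value was 1.41 and its parts were 1.52 and 1.45. Among 197 bins with a coding gene 63.5% were in A in wild-type and 64% in knockout cells, and of the 6 genes 3 were in A in each library. *Tfap2d* and *Tfap2b* fall in the same bin, so the count of genes is not on the scale of the share of bins. The sign at *Pou3f3*, counted in A, differed between the random parts of each library.

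*Gbx2* was in A, at 1.41 in wild-type and 1.32 in knockout cells, and *Tfap2d* and *Tfap2b*, which share a bin, were in B, at -1.12 and -1.01. *Pou3f3* (0.011 and 0.00492) and *Msc* (-0.0396 and -0.0888) lay at the border between compartments in both libraries. Over 4 alternative settings the knockout minus wild-type difference of *Msc* ran from -0.325 to -0.0495. The 12 expressed genes were all in A, from 1.37 for *Hspd1* to 1.59 for *Cox5b* in wild-type cells.

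*Eya1* had the largest difference among the 6 genes. Its bin fell by 0.425 SD, from 0.503 in wild-type to 0.0775 in knockout cells, with the random parts at 0.607 and 0.264 in wild-type and at 0.240 and -0.0669 in knockout cells. The size of this difference stood at the 98.0th percentile of the 197 bins, of which 0.508% differed by more than 0.5. The fall was not confined to this bin. The bins from 13.75, 14.25 and 14.5 Mb went from 0.122, 0.672 and 0.388 in wild-type to -0.103, 0.236 and 0.0648 in knockout cells. Falls were also seen far from *Eya1*, such as in the bins from 7 Mb (0.360 to 0.0728) and 84.5 Mb (0.613 to 0.266). Other bins rose, such as that from 44 Mb (0.431 to 0.860). *Eya1* was picked as the largest difference of the 6 genes, so its rank is given as a description. The parts did not overlap for *Eya1*, the AP-2 bin and *Gbx2*, and they did not overlap for 50.8% of all bins. The direction at *Gbx2* turned with 100 kb bins, from -0.0939 to 0.108.

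Insulation showed where the genes lie within contact domains. The score is the log2 of the contacts across a bin of 100 kb, within 500 kb on either side, relative to the mean; a low value marks a boundary. *Eya1* was among the least insulated sites, at 0.842 in wild-type and 0.777 in knockout cells, the 99.4th percentile of 317 bins in both. The nearest boundary was 500 kb away, in the bin from 13.7 to 13.8 Mb, in both libraries.

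*Msc* lay near the other edge of that domain. Its score was -0.414 in wild-type (parts -0.431 and -0.397) and -0.251 in knockout cells (parts -0.266 and -0.238). The difference was 0.163, at the 95.9th percentile of sizes, and it was 0.307 with a 300 kb square. The lowest scores nearby were in the bins from 14.8 and 14.9 Mb, which were level in wild-type cells (-0.470 and -0.469) and at -0.309 and -0.423 in knockout cells, so the place of the wild-type boundary between these bins was not resolved. Differences over 0.1 were seen in 17.7% of bins, and the parts did not overlap in 54.3%.

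The bin of *Tfap2d* was itself a boundary in both libraries, at -0.785 and -0.687, and *Tfap2b* was in the bin beside it, at -0.504 and -0.429. *Pou3f3* was at -0.160 and -0.213, with its nearest boundary 400 kb away. *Gbx2* was at 0.190 and 0.217, a local minimum within a contact-rich region that was called in both libraries.

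**Figure D3:**
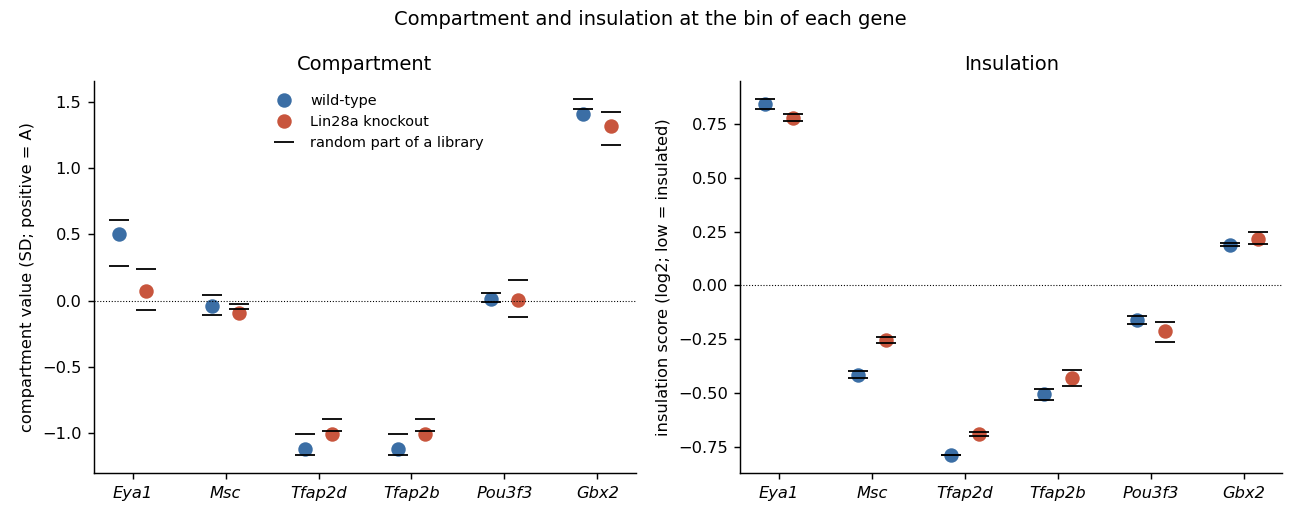
Compartment value (left, in SD, positive is A) and insulation score (right, log2, low is insulated) of the bin of each gene in the wild-type library, thinned to the number of pairs used from the knockout library, and in the Lin28a knockout library (dots), with 2 random parts of each library (black ticks). Eya1 shows the largest compartment difference, 0.503 against 0.0775, and Msc the largest insulation difference, -0.414 against -0.251.

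The local profiles, contacts of each window with 50 kb windows up to 1000 kb away, placed the genes in these domains. The expectation here was by distance alone and was not scaled by the ends of the windows. These ends were few at *Tfap2d*, at the 10.7th and 8.06th percentile of coding windows, and many at *Gbx2*, at the 89.1th and 90.1th. Of 223 such windows, 20 were above the expectation by more than counting error in both libraries and 24 below it, 8.97% and 10.8%, against 15.4% and 10.6% in the profiles of all coding windows. The interval of the knockout over wild-type ratio left out 1 for 8 of 223, 3.59%, against 4.12% for all coding windows.

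The highest local value belonged to *Msc*. Its window was joined 38 times with the window 950 kb before it (chr1:13779717-13829716) in wild-type cells, 3.86 (2.73 to 5.30) of the expectation, and 43 times in knockout cells, 5.19 (3.76 to 6.99). These values stood at the 99.7th and 99.9th percentile of 975 coding windows and partners 950 kb apart, with medians of 0.892 and 0.867. The window was picked as the highest of 223, so a high rank follows from the choice and is given as a description. The ranks use pairs of any mapping quality. The knockout over wild-type ratio was 1.34 (0.849 to 2.14). With mapping quality of at least 30 at both ends the values were 3.47 (2.34 to 4.95) and 3.63 (2.37 to 5.31), and their ratio was 1.05 (0.594 to 1.83). The partner overlaps the boundary bin at 13.7 to 13.8 Mb in part and overlaps no coding gene, the nearest being *Xkr9*, 77.5 kb away. *Eya1* lies between the 2 ends of this contact.

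*Gbx2* had 8 of 33 windows above the expectation in both libraries. They included all 5 windows from 100 to 300 kb before it, which overlap *Agap1*, a gene for a GTPase-activating protein, at 1.73 to 2.66 times expected. On the other side the window 100 kb away stood at 1.28 in wild-type and 1.12 in knockout cells.

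The AP-2 genes had most of the windows below the unscaled expectation in both libraries. The windows before the AP-2 genes overlap in sequence, so part of this stretch was counted for both genes. *Tfap2d* had 10 of 38 such windows, from 100 to 400 kb away and on both sides of the gene. *Tfap2b* had 9, most of them before it, on the side of *Tfap2d*. *Msc* had 3, *Eya1* and *Pou3f3* 1 each and *Gbx2* 0. *Tfap2b* was joined above the expectation with 3 windows 850 to 1000 kb after it, which overlap *Pkhd1*, a kidney and bile duct cilium gene. The window 1000 kb away stood at 2.17 (1.4 to 3.2) in wild-type and 2.06 in knockout cells. *Pou3f3* was above the expectation in 4 windows, 600 to 900 kb before it, in a stretch without coding genes.

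**Figure D4:**
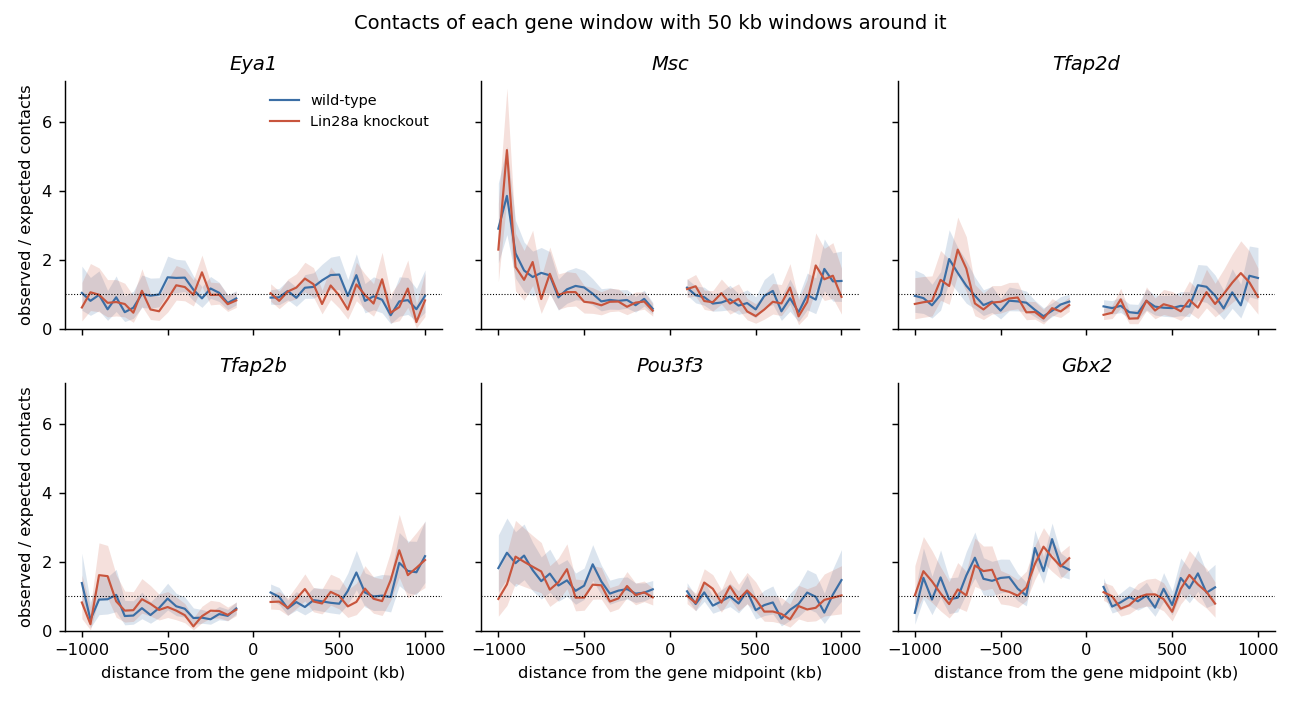
Contacts of each gene window with 50 kb windows at distances up to 1000 kb before and after the gene midpoint (x axis), as observed over expected (y axis), in the wild-type and Lin28a knockout library; shading gives exact Poisson intervals and the dotted line marks the expectation. The window 950 kb before Msc is highest at 3.86 and 5.19, and the 5 windows 100 to 300 kb before Gbx2 lie at 1.73 to 2.66.

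Beyond 1 Mb the partners followed the compartment of the gene in part. Over partner bins 1 to 10 Mb away, *Tfap2b* was joined with B bins at 1.36 (1.26 to 1.46) in wild-type and 1.44 (1.33 to 1.56) in knockout cells, and with A bins at 0.999 and 1.03. *Tfap2d*, in the same bin, gave 1.12 and 1.05 with B and 0.776 and 0.849 with A. *Gbx2* was higher with A bins, at 1.29 (1.16 to 1.43) and 1.42 (1.27 to 1.57), than with B bins, at 0.845 (0.672 to 1.05) and 0.997 (0.794 to 1.24). All its partner bins lay before it, because the stretch ends within 1 Mb after the gene.

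The border genes differed from each other. *Msc* gave 1.17 (1.06 to 1.29) and 1.06 with A bins and 0.756 (0.671 to 0.850) and 0.881 (0.781 to 0.991) with B bins. *Pou3f3* was above the expectation with both, at 1.26 and 1.43 with A and at 1.23 and 1.11 with B. *Eya1* lay between 0.937 and 1.01 in each. The knockout over wild-type ratios of these 12 values ran from 0.901 to 1.18, and each interval included 1. The compartments were called from the same maps, so these preferences are not independent of the calls.

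The strongest single partners at this range were 250 kb bins. *Pou3f3* was joined with the bin from 41.0 to 41.25 Mb 88 times in wild-type (2.87, 2.30 to 3.53) and 71 times in knockout cells (2.67, 2.09 to 3.37). It was joined with the next bin, which holds *Mfsd9* and *Tmem182*, at 2.25 (1.70 to 2.92) and 3.34 (2.62 to 4.21). *Tfap2b* was joined with a bin holding *Pkhd1* at 2.60 (2.17 to 3.10) and 2.69 (2.21 to 3.25). These bins were in B, at -1.05, -0.492 and -1.13 in the summed map. They were picked as the highest over all the genes in the summed libraries and are given as a description.

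**Figure D5:**
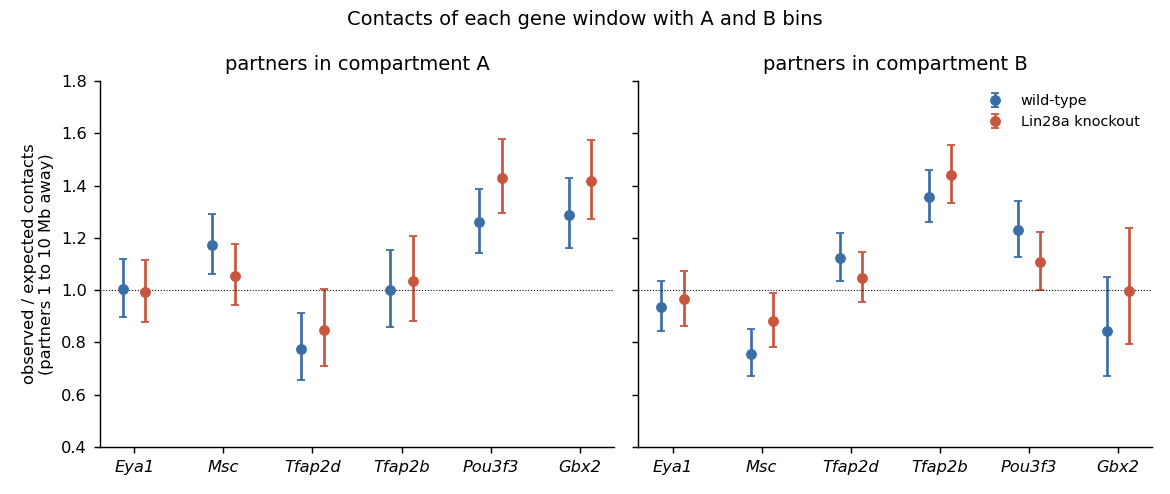
Contacts of each gene window with bins 1 to 10 Mb away in compartment A (left) and B (right), as observed over expected (y axis), in the wild-type and Lin28a knockout library, with exact Poisson intervals. Gbx2 is above the expectation with A at 1.29 and 1.42, Tfap2b with B at 1.36 and 1.44, and Pou3f3 with both.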

How the data were processed

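Hi-C was done in 1 wild-type and 1 *Lin28a* knockout library. The authors deposited lists of valid pairs with a mapping quality score for each end, and per the labels CASAVA 1.8, Bowtie2, HiC-Pro and mm10 were used. The enzyme is not given in the sources used here; 99.79% of 20000 ends checked matched fragments cut at GATC. Pairs with the first end on chromosome 1 between 3 Mb and position 90750000 were used, the stretch covered in both lists.

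The expectation for 2 windows was the mean contact density at their distance in the same library, over bins of 10 kb with at least 20% of the median ends. Overlapping windows of a list were joined. Compartments came from the first eigenvector of maps balanced in 100 rounds (250 kb bins, sign by gene count), and boundaries were minima of the insulation score with a prominence of 0.1 log2. The wild-type library was thinned to the 1973740 pairs of the knockout library for both tracks. Ratios compare 1 library with 1 library, so no p-value is given. Intervals are 95% exact intervals (that for a ratio of changes is from the normal approximation on the log scale).

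The 6 genes and the comparison lists were chosen with earlier results of these data known. Named genes are the 6, genes with the highest and lowest value of a comparison list, the nearest coding gene of a named contact or boundary, *Lin28a*, and the best partners beyond 1 Mb; list members named as examples and *Pantr1*, *Gm9947*, *LOC102637806* and *Asb18* were added after values were seen. Scripts ran in Python with numpy, scipy and pandas and were tested on simulated pairs. Alternatives were other window widths, gene starts, mapping quality and the larger read-name group alone. The rest were a coverage-scaled or compartment-matched expectation, other bin sizes, and each gene left out.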

Additional observations from a re-analysis of the deposited data

How the results depend on the processing

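No paired analysis was possible because each genotype is 1 library. The knockout over wild-type ratio of the distant pairs ran from 1.196 to 3.81 over 13 alternatives, and its interval included 1 in all of them, also with the expectation taken within compartment classes. The observed over expected value of the distant wild-type pairs moved beyond its interval only without *Eya1*, to 0.342 (0.531 with windows at gene starts), as did the value at the crossing over its surroundings, to 0.343, on 2 contacts. The value of all pairs moved beyond its interval in 6 of 13 alternatives in wild-type and 4 of 13 in knockout cells. In wild-type and knockout cells it was 1.25 and 1.04 with 100 kb windows, 1.28 and 1.08 with 200 kb windows (both widths join *Tfap2d* and *Tfap2b* and so drop their pair), and 1.01 and 0.992 with the coverage-scaled expectation. It was 0.578 without *Eya1* in wild-type cells, 1.27 and 1.06 without *Tfap2d*, and 1.17 without *Tfap2b* in wild-type cells. With the coverage-scaled expectation the other developmental regulators stood at 0.740 and 0.920 and the expressed genes at 1.54 and 1.92, and with 200 kb windows the expressed genes of the knockout library stood at 2.46. The interval of the window ends left out 1 for 3 genes when all cis and trans ends were counted (*Eya1* 0.936, *Tfap2d* 0.935, *Pou3f3* 1.05), and for 1, *Eya1*, with 100 kb windows (0.910) and at gene starts (0.939); it did so for 29.2%, 31.2% and 21.2% of the 496 coding windows. The median insulation difference of the 6 genes was -0.0330 with a 300 kb square, while that of *Msc* was 0.307. The compartment difference of *Eya1* ran from -0.539 to -0.417 over 4 alternatives, that of *Msc* from -0.325 to -0.0495, and that of *Tfap2d* from 0.0125 to 0.310. The compartment difference of *Gbx2*, -0.0939, turned to 0.108 with 100 kb bins. With a 300 kb square the insulation differences of *Tfap2d* (0.0985), *Tfap2b* (0.0748) and *Gbx2* (0.0275) turned to -0.0274, -0.0159 and -0.0386. The alternatives for the near pairs and for the window 950 kb before *Msc* were chosen after seeing the data. The causes of these shifts were not tested. Depth limits the distant pairs, with 9 and 12 contacts.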
